A study of Rattus norvegicus with 24 samples.

Results

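Right ventricular free wall of rats was compared between 6 libraries labelled DAAO and 6 labelled CTL, read here as control. These 12 libraries are those whose titles name the right ventricle, of 24 heart libraries in all, and the other 12 are from the left ventricle with septum of the same animal numbers. All animals are of the strain WI, given as such for both groups, and the whole piece of tissue was sequenced, so a lower level can come from fewer cells of a type or from less RNA per cell, and these cannot be told apart. The labels used here give no age, sex, dose, duration, vector, promoter or D-amino acid for either group, so whether the controls carry any part of the DAAO treatment is not known from them. Nothing states that the numbers are separate rats, so the p-values measure the spread between these libraries. Every DAAO number is higher than every CTL number, and the group cannot be told apart from anything else that goes with the numbers.

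The abbreviation DAAO commonly stands for D-amino acid oxidase. The enzyme turns D-amino acids into the corresponding keto acids and releases hydrogen peroxide, and mammalian tissue holds little of its substrate. A DAAO transgene placed in heart muscle and supplied with a D-amino acid therefore raises hydrogen peroxide on demand, which is the principle of the chemogenetic heart failure named in the series title. The free wall of the right ventricle is the thin muscle that drives blood through the lungs, and it is loaded further when failure of the left side raises the pressure behind it.

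The deposited table names genes by Ensembl number and does not pair the numbers with symbols. The reference table of 47357 rat genes held an Ensembl number for 0 genes, so none of the 32883 deposited identifiers could be matched (0 matched). This says nothing on whether they are known rat genes. No cardiac gene, cell type marker or pathway is therefore named here, and the labelled tissue could not be checked against its markers. Identifiers are given for 2 genes that rose and 2 that fell, and the rest of the description is by animal. Animals carry the names of the deposited columns, where C_ marks CTL and D_ marks DAAO.

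The right ventricles did not fall cleanly into their labelled groups. To place each animal on genes it had no part in choosing, the comparison was fitted without it, and its level was set against the means of the remaining CTL and DAAO animals for every gene then called (limma adjusted p under 0.05). The animals C_7118, C_7120, C_7121 and C_7123 were nearer the DAAO mean for 11.7%, 11.4%, 13.6% and 14.1% of such genes. For C_7000 that share was 20.7% (674 of 3253 genes). For C_7005 it was 44.2% (1879 of 4252 genes), and its median place was 0.43 on a scale where the CTL mean is 0 and the DAAO mean is 1. This library labelled CTL thus stood almost midway between the groups. The CTL mean used for C_7000 still held C_7005, and the reverse. With both left out of the fit, 4143 genes were called. C_7000 was then nearer the DAAO mean for 31.1% at a median place of 0.27, and C_7005 for 48.6% at 0.48.

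The DAAO animals were spread over a wider range of shares than the CTL animals. D_7146 and D_7138 were nearer the DAAO mean for 97.5% and 96.7% of the genes called without them. D_7135 followed at 83.5%, D_7143 at 74.8% and D_7142 at 73.9%. D_7137 was nearer the DAAO mean for 49.6% (2097 of 4226 genes) at a median place of 0.50, midway between the other DAAO animals and the controls. Its place differed by direction, at 57.4% of the genes that were higher in DAAO and 42.8% of those that were lower. In C_7005 the same split was 50.2% and 38.0%. These shares are descriptions over genes, which are not independent of each other, and carry no test.

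**Figure D1:**
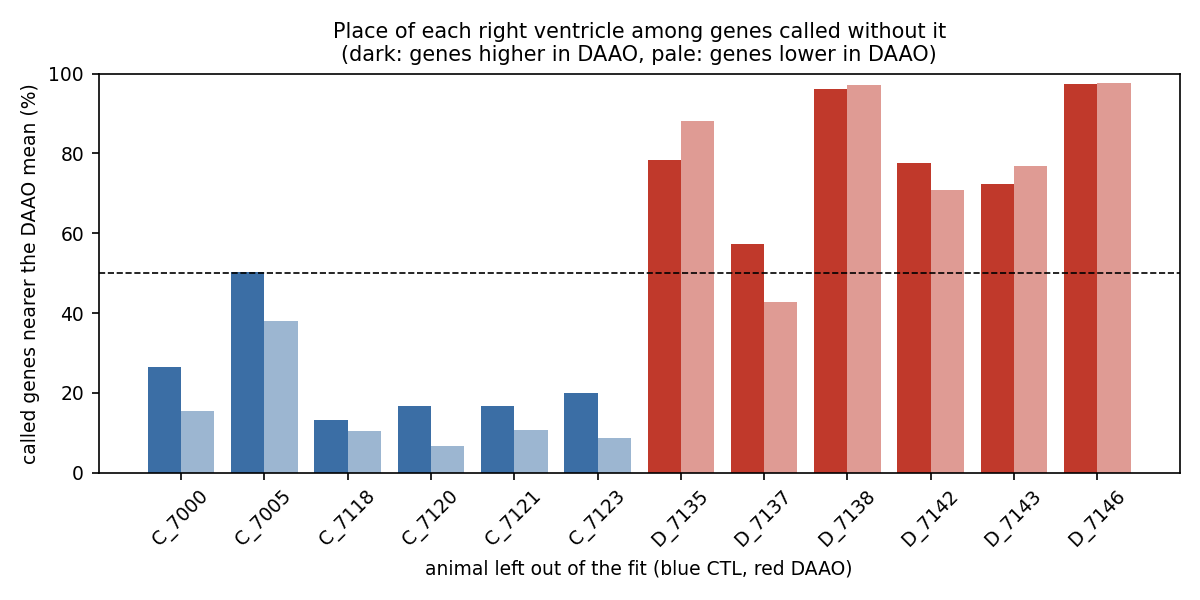
Each animal was left out of the fit in turn, and the bars give the percentage of the genes then called for which its log2(normalized count + 1) lay nearer the DAAO than the CTL mean of the remaining animals, separately for genes higher (dark) and lower (pale) in DAAO. The bars of C_7005 stand at 50.2% and 38.0% and those of D_7137 at 57.4% and 42.8%, around the dashed line at 50%, while D_7138 and D_7146 stand above 96%.

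The comparison of DAAO with CTL asked which genes of the free wall differ in level between the groups. Of 13489 genes whose normalized count averaged at least 10, 3574 (26.5%) were called by limma, 1684 (12.5%) higher and 1890 (14%) lower in DAAO. With all libraries scaled to the same total the called genes divided into 3802 higher and 933 lower, and over all genes the median change moved from 0.02 to 0.27 on the log2 scale, so the balance of rises and falls depends on the scaling. Scaling by TMM factors gave 1773 higher and 1818 lower genes, close to the deposited scaling. Without the library labelled C_7005 the number called was 4252, without D_7137 it was 4226, and without C_7000 and C_7005 together it was 4143, of which 3124 were among the 3574. Leaving out D_7146 or D_7138 gave 2587 and 2600.

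**Figure D2:**
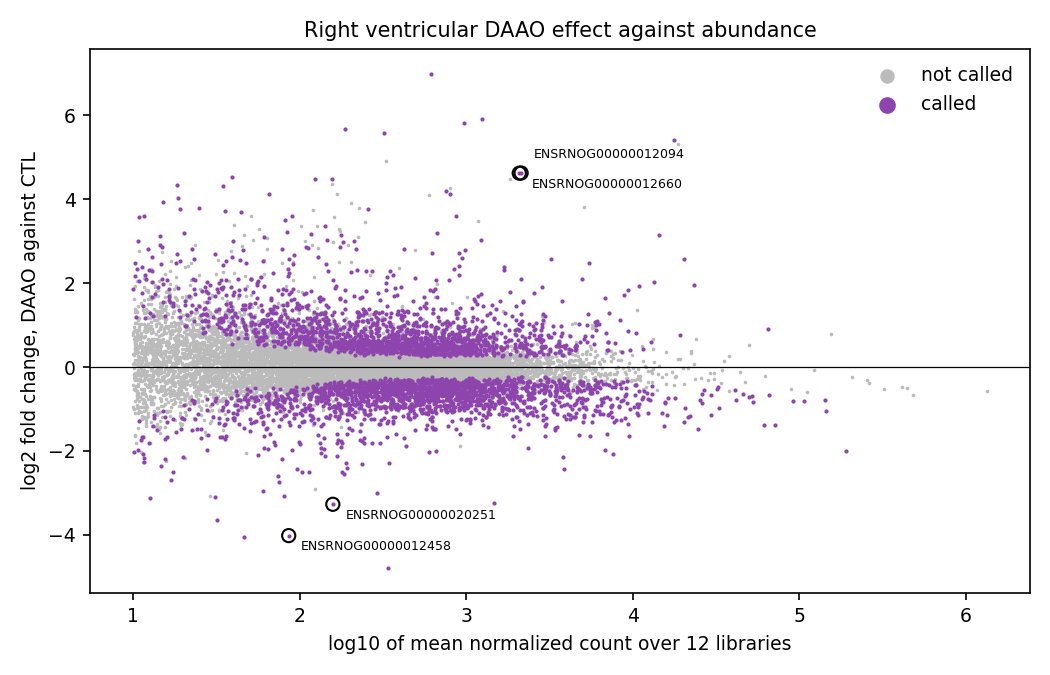
Each point is a gene of the right ventricle, with the log10 of its mean normalized count over 12 libraries across and the log2 fold change of DAAO against CTL up, and the 3574 called genes are coloured. The circled identifiers are the 4 described in the text, the rises close together near a log2 fold change of 4.6 and the falls at -4.02 and -3.27.

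ENSRNOG00000012094 showed the largest rise among called genes with a mean of at least 50 whose groups did not overlap. Its normalized counts in CTL were 461 in C_7000, 296 in C_7005, 27.2 in C_7118, 118 in C_7120, 146 in C_7121 and 75.0 in C_7123. In DAAO they were 7064 in D_7135, 1275 in D_7137, 7176 in D_7138, 1284 in D_7142, 3008 in D_7143 and 4708 in D_7146. The choice among genes without overlap fixed that all DAAO values lay above all CTL values. The lowest DAAO levels were in D_7137 and D_7142 and the highest CTL levels in C_7000 and C_7005. CTL averaged 187 ± 162 and DAAO 4086 ± 2673 (SD, n = 6 each). On the log2 scale the rise was 4.63 with an SE of 0.63 (adjusted p = 0.000492, limma).

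ENSRNOG00000012660 had nearly the same level and the same size of rise. It stood at 207, 502, 39.1, 166, 136 and 46.5 in C_7000, C_7005, C_7118, C_7120, C_7121 and C_7123. It stood at 8210, 893, 3651, 1891, 3523 and 5715 in D_7135, D_7137, D_7138, D_7142, D_7143 and D_7146. The same choice fixed that the groups did not overlap. C_7005 was the highest control and D_7137 the lowest DAAO animal. CTL averaged 183 ± 170 and DAAO 3981 ± 2650 (SD, n = 6 each), a rise of 4.62 on the log2 scale with an SE of 0.61 (adjusted p = 0.000484, limma). Without C_7000 and C_7005 the log2 fold changes of ENSRNOG00000012094 and ENSRNOG00000012660 were 5.37 and 5.29, both at a limma adjusted p of 0.000275.

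ENSRNOG00000012458 showed the largest fall by the same rule. In CTL it stood at 165 in C_7000, 38.8 in C_7005, 314 in C_7118, 187 in C_7120, 96.9 in C_7121 and 159 in C_7123. In DAAO it stood at 7.49 in D_7135, 6.94 in D_7137, 26.8 in D_7142, 24.5 in D_7143 and 5.97 in D_7146, and no read was counted in D_7138, where 3 reads would give a normalized count of 2.39. C_7005 was the lowest control, and its 38.8 and the 26.8 of D_7142 are the nearest values of the groups. The average was 160 ± 92.8 in CTL against 11.94 ± 10.95 in DAAO (SD, n = 6 each), and the log2 fold change was -4.02 with an SE of 0.71 (adjusted p = 0.00149, limma). The log2 fold change was -3.41 without D_7138, and -3.32 with a pseudocount of 5 instead of 1.

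ENSRNOG00000020251 fell in another pattern over the controls. It stood at 190, 130, 160 and 165 in C_7000, C_7005, C_7118 and C_7120, but at 449 and 601 in C_7121 and C_7123. The DAAO values were 16.6 in D_7135, 61.6 in D_7137, 3.18 in D_7138, 67.0 in D_7142, 36.2 in D_7143 and 17.9 in D_7146. Every DAAO animal was below every control, which the rule of choice required. D_7137 and D_7142 were nearest to the controls. The average was 283 ± 195 in CTL against 33.8 ± 25.9 in DAAO (SD, n = 6 each), and the log2 fold change was -3.27 with an SE of 0.61 (adjusted p = 0.00203, limma). It was -2.76 without D_7138, whose 3.18 lies near the 2.39 that 3 reads would give there.

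**Figure D3:**
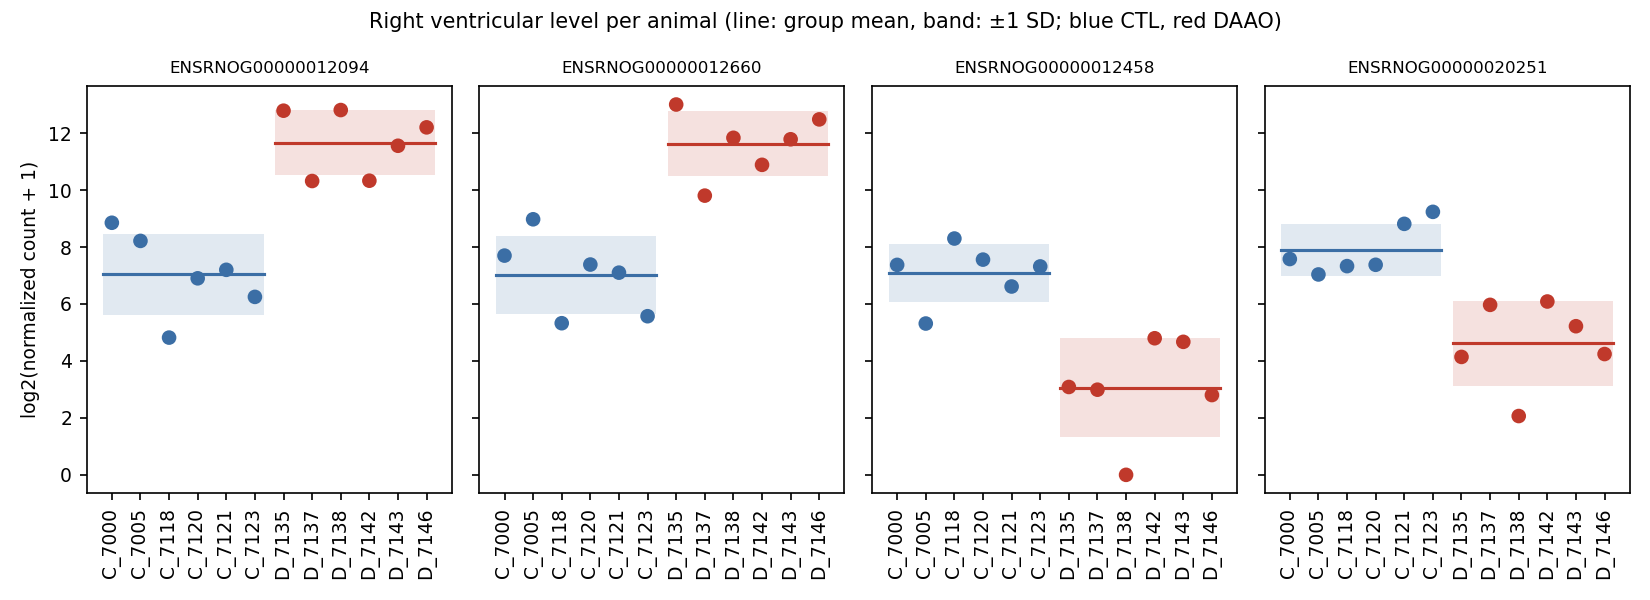
Right ventricular log2(normalized count + 1) of the 4 identifiers in each animal, CTL in blue and DAAO in red, with the group mean as a line and 1 SD as a band. The groups do not overlap in any panel, which the rule that chose the genes required. The DAAO animals are spread over 2 or more log2 units in each panel.

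A separation of all 6 DAAO from all 6 CTL animals was not the rule among called genes. Of the 1684 rises, 591 (35.1%) had all 6 DAAO animals above every control, 521 had 5 and 349 had 4. Of the 1890 falls, 731 (38.7%) had all 6 below every control, 636 had 5 and 314 had 4. In 223 rises and 209 falls only 3 or fewer DAAO animals lay beyond the controls. Over all 13489 genes tested, called or not, the groups did not overlap for 602 genes (4.46%) higher and 742 genes (5.5%) lower in DAAO. Called rises with a larger fold change than ENSRNOG00000012094 numbered 6, and in all 6 the groups overlapped. Of the 2 called falls larger than that of ENSRNOG00000012458, 1 had overlapping groups and 1 a mean under 50.

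**Figure D4:**
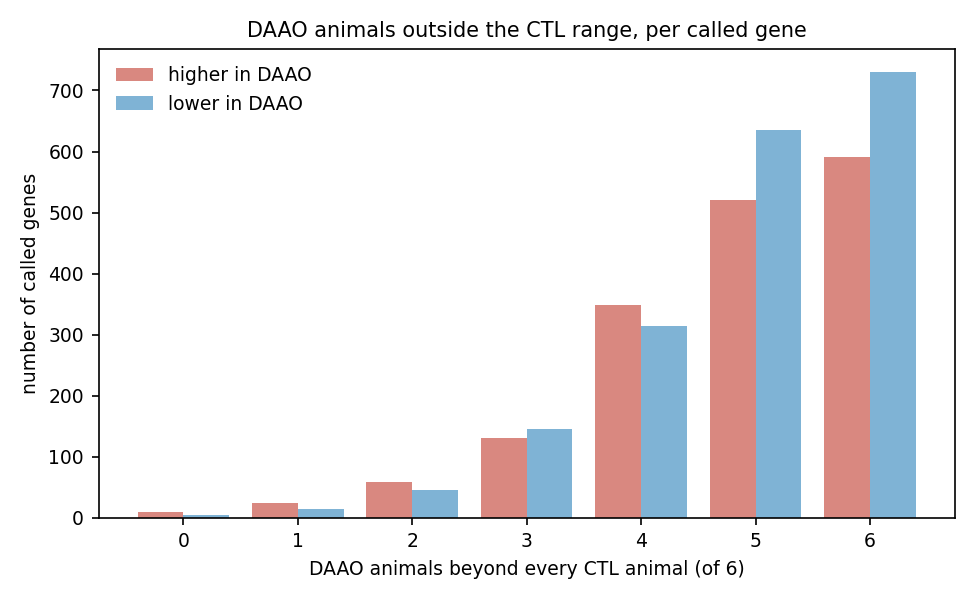
Number of called genes by how many of the 6 DAAO animals lay above every CTL animal (genes higher in DAAO) or below every CTL animal (genes lower in DAAO). The bars at 6 animals hold 591 rises and 731 falls, and those at 5 hold 521 and 636.

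Within these separated genes the animals took unequal places. Genes where any DAAO animal overlapped the controls are not among them, so these places do not rank the animals over all called genes. D_7138 was the lowest DAAO animal in 417 of the 742 separated falls (56.2%) and the highest in 215 of the 602 separated rises (35.7%). D_7146 was the lowest in 156 falls (21.0%) and the highest in 85 rises (14.1%). The DAAO animal nearest the controls was D_7137 in 336 falls (45.3%) and D_7143 in 235 rises (39.0%). D_7143 was the highest in 11 rises (1.83%) and the lowest in 12 falls (1.62%). D_7137 was the nearest to the controls in 132 rises (21.9%). Over all genes called higher without the animal concerned, D_7137 was nearer the DAAO mean for 57.4% and D_7143 for 72.4%.

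The recovered reads per library ranged from 13280705 to 18777633, and their group difference did not pass the threshold (15498500 ± 861927 reads in the CTL and 16480300 ± 2036320 in the DAAO libraries, SD, n = 6 each, two-sided exact permutation p = 0.301). Other library measures moved with the groups. Genes with any read numbered 16479 to 17828 in DAAO and 15679 to 16823 in CTL, a difference of means of 1106 (n = 6 each, two-sided exact permutation p = 0.00649, or 0.013 after Benjamini-Hochberg adjustment over 3 measures). The 10 most abundant genes held between 20.9% and 26.5% of the normalized counts in DAAO and between 24.5% and 32.5% in CTL, with the lowest CTL share in C_7005. The part of these 2 measures in the gene results was not tested.

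The 4 identifiers were also set against the left ventricle of the same animal numbers, in a limma fit over all 24 libraries that tests the right minus the left DAAO effect. Over the 13344 genes tested in both tables that difference was called for 391 (2.93%). ENSRNOG00000012094 had a log2 fold change of 3.55 (SE 0.33) in the left ventricle, and its effect in the right was larger by 1.07 (SE 0.77, limma adjusted p = 0.505). ENSRNOG00000012660 had 3.14 (SE 0.39) in the left, and the right exceeded it by 1.49 (SE 0.79, limma adjusted p = 0.335). The left ventricular falls of ENSRNOG00000012458 and ENSRNOG00000020251 were -4.44 (SE 0.61) and -3.64 (SE 0.48). The left DAAO levels of these genes were low, averaging 7.01 ± 5.40 and 10.4 ± 8.95 normalized counts (SD, n = 6 each). Their right minus left differences were 0.42 (SE 0.99) and 0.37 (SE 0.83), at limma adjusted p values of 0.893 and 0.884. These differences moved with the pseudocount, to 0.32 and 0.40 at 0.5 and to 0.47 and 0.16 at 5. None of the 4 differences passed the threshold in this fit, which ignores the shared numbers. With the animal number as a replicate block the difference of ENSRNOG00000012660 passed it (1.49, limma adjusted p = 0.0113) and the other 3 did not. In that fit 1072 genes were called in place of 391, and every pair by number is taken as given. The 4 genes were chosen by the size of their right ventricular change and not of their left. The choice can enlarge the right effect, so neither fit is a fair test of their right minus left difference.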

How the data were processed

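The authors deposited 1 table of normalized counts per ventricle, a signal made of read counts divided by 1 size factor per sample. STAR 2.7.0a, DESeq2 1.26.0, FastQC and the build Rnor_6.0 are named, with no role, per the submitters' processing notes. For the read counter, annotation and strand setting, nothing is given in the sources used here, so overlapping genes and genes with near copies are uncertain. Dividing each right ventricular column by its smallest value above 0 gave whole reads for 100% of values within a relative 1e-06. Replicates were distinct libraries: chi-square per degree of freedom was at least 19.8 for every pair of a group.

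Values were transformed as log2(value + 1) and tested with limma 3.58.1 (R 4.3.3, trended variance), two-sided, with Benjamini-Hochberg adjustment over all genes with a mean of at least 10, at a threshold of 0.05. The pseudocount shrinks fold changes of low genes on this scale. The log2 fold change of ENSRNOG00000012458 was -4.24 with a pseudocount of 0.5, -4.02 with 1 and -3.32 with 5. It was nevertheless larger in size with a pseudocount of 1 than on the recovered reads, at -3.78 with edgeR and -3.76 with DESeq2. Levels were compared only within a table. Alternatives were the pseudocount, the filter, the scaling, robust and weighted fits, edgeR 4.0.16 and DESeq2 1.42.0 on the recovered reads, and leaving animals out. The fits were tested on simulated data.

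The identifiers given are the 2 largest rises and 2 largest falls among called genes with a mean of at least 50 and no overlap between groups. The same rule also named fixed cardiac genes, members of 33 pathway lists and genes differing between ventricles, and 19 marker lists were set up. None could be applied without symbols. The groups compared, the lists and the rule were chosen with earlier results of these data known. The placing of left-out animals and the counts of animals beyond the controls were added after the values were seen.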

Additional observations from a re-analysis of the deposited data

Results flagged for a closer look

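With each animal left out alone, the share of called genes nearer the DAAO mean was 44.2% in C_7005. This lay far above the share of the 5 other CTL animals, which ranged up to 20.7%. In ENSRNOG00000012660 the same animal stood at 502 in the right ventricle, far from the next highest control at 207. In the left ventricle ENSRNOG00000020251 stood at 28.2 in D_7137, where the 5 remaining DAAO animals reached 10.6. These were 3 of 24 groups of 6 values looked at, where about 1 in 20 is marked in this way by chance. A right minus left difference in the DAAO effect was called for 391 of 13344 genes (2.93%) by the limma test of the difference itself, more positive in the right ventricle for 182 and more negative for 209.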

How the results depend on the processing

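The 4 identifiers kept their direction and stayed past the threshold in all 23 alternative fits of the right ventricle. They were chosen from these same libraries for large changes without overlap, so this could hardly come out otherwise and is no independent support. The 3574 called genes ranged from 2587 (without D_7146) to 4252 (without C_7005) when animals were left out, the rises from 1169 to 2162 and the falls from 1410 to 2258. Equal totals called 4735 genes, 3802 rises and 933 falls. Array weights called 5293 genes, 2655 rises and 2638 falls, more than any fit with animals left out. On the recovered reads edgeR called 3497 genes and DESeq2 4115, with 30 adjusted p values undefined. The 391 genes differing between the ventricles became 85 (without D_7146) to 616 (without D_7137), and 236 without C_7000 and C_7005 together. Other animals whose absence moved that count by more than 1.5 times were C_7000 (120), C_7118 (123), C_7120 (156), D_7135 (255), D_7138 (160), D_7142 (184) and D_7143 (223). With the animal number as a replicate block it was 1072. The right minus left difference of ENSRNOG00000012660, a gene chosen for its rise in the right, then passed the threshold (1.49, limma adjusted p = 0.0113). Left and right libraries of 1 number deviated together with r from 0.057 to 0.788, above 0.1 for 10 of 12 numbers. They went best with their own number for 9 of 12, so the pairing is a hint from the data. The exceptions were all controls. The right libraries of C_7118, C_7120 and C_7123 went best with the left libraries of C_7120, C_7123 and C_7118, in that order. Their r with their own number was 0.060, 0.057 and 0.254. The fit with a replicate block takes these pairs as given, and their pairing was not tested further. The right minus left difference of ENSRNOG00000012458 turned to -0.049 without D_7142 and reached 0.98 without D_7138. Causes were not tested. The library measures kept their side of the threshold without C_7000 and C_7005. Genes with a mean near 10 rest on few reads per library.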
